A study of Arabidopsis thaliana with 6 samples.

Results

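This report covers 5 nuclear genes of photosynthesis: the 3 LHCB4 paralogs LHCB4.1 (AT5G01530), LHCB4.2 (AT3G08940) and LHCB4.3 (AT2G40100), RCA (AT2G39730) and PSAE1 (AT4G28750, PSAE-1 in RefSeq). They were chosen by locus, and each is named by a single probe set, so 5 of the 13286 genes measured through a probe set with 1 gene are described. RNA came from whole 5-day-old Arabidopsis thaliana seedlings grown in a 16 h light and 8 h dark cycle with no treatment, and was hybridised to 6 Affymetrix arrays. The groups were the wild type (WT), a line labelled atvap mutant, and wild type with overexpressed TaVAP (TaVAPOE), with 2 biological replicates each. The labels give neither the mutated locus nor the promoter of the transgene. By its title the series concerns TaVAP in stress tolerance.

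The light-harvesting antenna of photosystem II passes absorbed light energy to the reaction centre. LHCB4 proteins, also called CP29, are minor antenna proteins that bind chlorophyll and lie between the core of photosystem II and its outer antenna of LHCII trimers, and Arabidopsis encodes them in separate nuclear genes. RCA is Rubisco activase, which removes inhibitory sugar phosphates from Rubisco so that carbon can be fixed. PSAE1 encodes one form of PsaE, a stromal subunit of photosystem I near the site where ferredoxin docks. All of these proteins are made in the cytosol and imported into the chloroplast.

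Values are log units of the deposited scale, whose base is not stated. Across the 22746 probe sets tested, array medians lay between 2.74 and 2.88. The 4 arrays WT replicate 2, mutant replicate 2 and both TaVAPOE replicates had pairwise Pearson correlations of 0.935 to 0.979 across probe sets (which are not independent replicates) and are called the concordant arrays below. WT replicate 1 correlated with them at 0.518 to 0.526 and mutant replicate 1 at 0.188 to 0.194. The 3 control probe sets near the 3' ends of actin, GAPDH and ubiquitin averaged 7.24 to 7.35 on the concordant arrays, 6.13 on WT replicate 1 and 3.43 on mutant replicate 1, and the 3 near the 5' ends averaged 4.54 to 5.44, 3.09 and 2.16. The 99th percentile of all probe sets was 7.65 to 7.78 on the concordant arrays, 5.78 on WT replicate 1 and 4.84 on mutant replicate 1. The part of RNA quality and hybridisation in these gaps was not tested, so the comparisons below are given with and without these 2 arrays. Markers of the organs in a whole seedling could be checked only in part: 1 of 10 root markers and 3 of 7 shoot markers had a probe set with 1 gene, and they read between 0.71 and 3.79 over the 6 arrays. The 5 genes described here read between 5.14 and 9.55 on the concordant arrays, but between 2.32 and 4.15 on mutant replicate 1, within or near the range of these markers.

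LHCB4.1, RCA and PSAE1 were bright in all 3 genotypes and nearly level across 5 of the 6 arrays. LHCB4.2 read highest on both TaVAPOE arrays, while LHCB4.3 read highest on WT replicate 2. All 5 genes read lowest on mutant replicate 1. That array was the lowest of the 6 for 26.0% of all probe sets, most of which were dimmer than these genes. In the bands of brightness that hold these genes, the median of mutant replicate 1 minus mutant replicate 2 was -2.44, -3.34 and -5.71 log units. The control probe sets near the 3' ends also read low on that array, at 3.43 against 7.24 to 7.35 on the concordant arrays. The part of RNA quality and hybridisation in its low readings was not tested. For any difference between genotypes in whole seedlings, fewer green cells and less transcript per cell cannot be told apart.

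**Figure D1:**
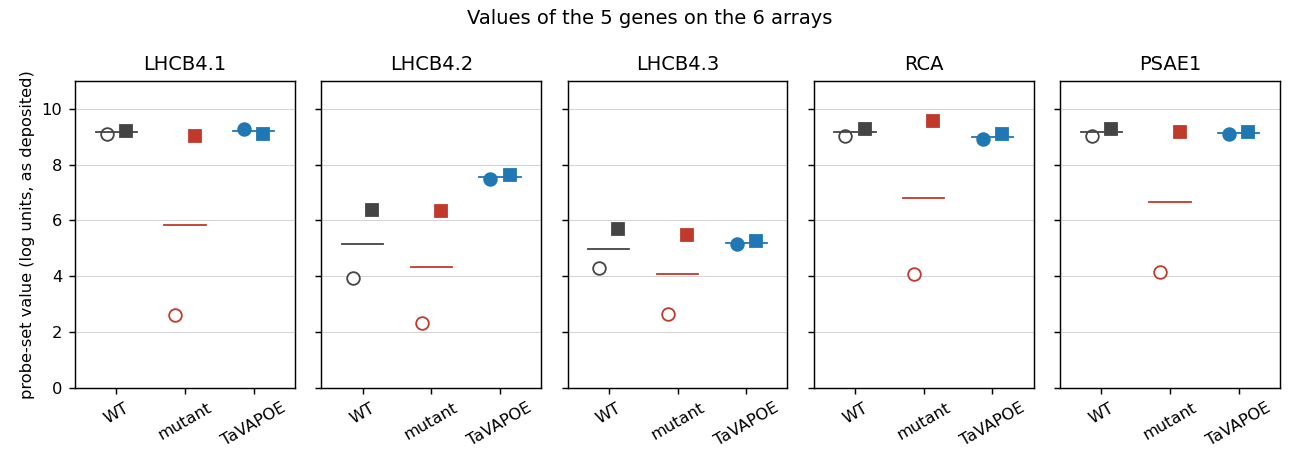
Probe-set value in log units (vertical axis) of each gene by genotype. Circles are replicate 1 and squares replicate 2, open circles are the arrays WT replicate 1 and mutant replicate 1, and the horizontal line is the mean of 2 arrays. LHCB4.2 reads 7.49 and 7.61 in TaVAPOE, above all other arrays, while the mutant means of LHCB4.1, RCA and PSAE1 lie far from both of their arrays.

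LHCB4.1 read 9.09 and 9.22 in WT (replicates 1 and 2), 2.62 and 9.02 in the mutant, and 9.29 and 9.11 on the TaVAPOE arrays. Its values on 5 arrays thus lay within a narrow band and overlapped between WT and TaVAPOE, and mutant replicate 1 alone stood apart. Group means were 9.15 ± 0.10 in WT, 5.82 ± 4.53 in the mutant and 9.20 ± 0.12 in TaVAPOE (SD, n = 2 arrays each). Within each array LHCB4.1 stood at percentiles 99.8 to 99.9 of all probe sets on 5 arrays and at percentile 37.1 on mutant replicate 1. On the 4 concordant arrays it averaged 9.16 ± 0.12 (SD, n = 4), and the WT and mutant arrays among them differed by 0.20 log units, against 0.17 between the TaVAPOE replicates.

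LHCB4.2 read 3.94 and 6.37 in WT, 2.32 and 6.34 in the mutant, and 7.49 and 7.61 for TaVAPOE. Both TaVAPOE arrays lay above all 4 arrays of the other genotypes, while WT and mutant overlapped and read nearly the same on replicate 2. The group means were 5.15 ± 1.71 in WT, 4.33 ± 2.84 in the mutant and 7.55 ± 0.09 in TaVAPOE (SD, n = 2). In percentiles of the array, LHCB4.2 stood at 98.7 and 98.8 on the TaVAPOE arrays, 95.9 and 95.3 on WT and mutant replicate 2, 89.2 on WT replicate 1 and 24.4 on mutant replicate 1. The 6 arrays were thus in the same order in percentiles as in values.

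LHCB4.3 read 4.28 and 5.70 in WT, 2.65 and 5.47 in the mutant, and 5.14 and 5.26 for TaVAPOE. The TaVAPOE arrays lay below both concordant arrays of the other genotypes and above both discordant ones, so the groups overlapped. Group means were 4.99 ± 1.01 in WT, 4.06 ± 1.996 in the mutant and 5.20 ± 0.08 in TaVAPOE (SD, n = 2). In percentiles WT replicate 1 did not stand low for this gene, at 93.5 against 92.6 on WT replicate 2, 90.3 on mutant replicate 2, and 88.4 and 88.7 in TaVAPOE. Only mutant replicate 1 stood low in percentiles, at 38.3.

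RCA read 9.03 and 9.28 in WT, 4.07 and 9.55 in the mutant, and 8.92 and 9.09 for TaVAPOE. Its highest and its lowest value were both in the mutant. Group means were 9.15 ± 0.18 in WT, 6.81 ± 3.88 in the mutant and 9.01 ± 0.12 in TaVAPOE (SD, n = 2), and WT and TaVAPOE overlapped. Arabidopsis makes a long and a short RCA protein by alternative splicing, and this single probe set was not checked for telling them apart.

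PSAE1 read 9.04 and 9.27 in WT, 4.15 and 9.16 in the mutant, and 9.12 and 9.17 for TaVAPOE. It was the steadiest of the 5 genes on the concordant arrays, at 9.18 ± 0.06 (SD, n = 4), against 0.12 for LHCB4.1, 0.24 for LHCB4.3, 0.27 for RCA and 0.69 for LHCB4.2. Group means were 9.15 ± 0.16 in WT, 6.65 ± 3.54 in the mutant and 9.14 ± 0.04 in TaVAPOE (SD, n = 2). On mutant replicate 1 PSAE1 and RCA still stood at percentiles 95.2 and 94.4 of that array, whereas LHCB4.1 stood at 37.1.

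The gap between replicates depended on the brightness of a probe set, and the 5 genes differed in it accordingly. In WT, replicate 1 read LHCB4.1, RCA and PSAE1 lower than replicate 2 by only 0.14, 0.25 and 0.22 log units, but LHCB4.3 by 1.42 and LHCB4.2 by 2.42. Over all probe sets in the same bands of brightness on WT replicate 2, the median of replicate 1 minus replicate 2 was -0.12 for the 41 at 9 or more, -2.22 for the 797 from 6 to 7 and -2.02 for the 1362 from 5 to 6. The brightest members thus moved as little as other very bright probe sets, and the dimmer LHCB4 paralogs as other probe sets of middle brightness. In the mutant the gap grew with brightness instead, with a median of -5.71 for the 47 probe sets at 9 or more on replicate 2, -3.34 for the 884 from 6 to 7 and -2.44 for the 1443 from 5 to 6. LHCB4.1 differed by -6.40, RCA by -5.48, PSAE1 by -5.01, LHCB4.2 by -4.02 and LHCB4.3 by -2.82. All 5 lay between the 10th and the 90th percentile of their band in each genotype except RCA in TaVAPOE, at -0.17 against a 10th percentile of -0.15. In TaVAPOE the replicates of the 5 genes differed by at most 0.17. Replicate 1 read over 1 log unit below replicate 2 for 2 of the 5 genes in WT, 5 of 5 in the mutant and 0 of 5 in TaVAPOE, beside 27.2%, 24.6% and 0.646% of all probe sets.

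**Figure D2:**
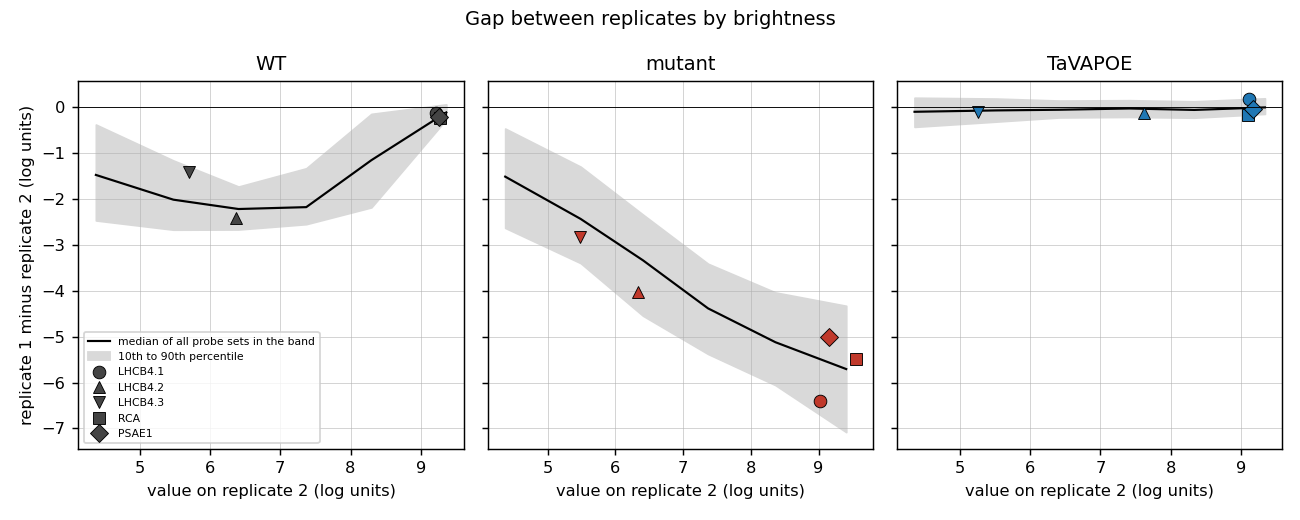
Replicate 1 minus replicate 2 in log units (vertical axis) against the value on replicate 2 (horizontal axis), 1 panel per genotype. The line is the median of all probe sets in bands 1 log unit wide (9 and above pooled), the grey area their 10th to 90th percentile, and the symbols are the 5 genes. In WT the median gap is -2.22 at values from 6 to 7 and -0.12 at 9 or more, whereas in the mutant it falls to -5.71 at 9 or more.

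Between the atvap mutant and WT, none of the 5 genes passed the test over 6 arrays. All 5 were lower in the mutant mean, by -3.33 ± 1.92 log units for LHCB4.1, -2.50 ± 1.53 for PSAE1, -2.35 ± 1.66 for RCA, -0.93 ± 1.02 for LHCB4.3 and -0.83 ± 1.44 for LHCB4.2 (limma difference ± SE, n = 2 against 2, adjusted p = 0.9999 for each). Only for LHCB4.1 did the groups not overlap, both mutant arrays lying below both WT arrays, which 7.28% of all probe sets did. The test was limma with Benjamini-Hochberg adjustment at 0.05 over all 22746 probe sets, of which 0.0% passed and 0.958% had an unadjusted p under 0.05, with 0 of the 5 genes among them. No other tool was run. The median difference over the 5 genes was -2.35 against 0.0042 over all probe sets, and it rested on mutant replicate 1.

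Without the 2 discordant arrays the mutant and WT, now 1 array each, read within 0.27 log units of each other for all 5 genes. The differences were 0.27 for RCA, -0.03 for LHCB4.2, -0.11 for PSAE1, -0.20 for LHCB4.1 and -0.23 for LHCB4.3. Their 95% intervals reached from -0.83 to 0.42 for LHCB4.1, from -0.63 to 0.58 for LHCB4.2 and from -0.35 to 0.89 for RCA. Differences within these bounds were thus not excluded by this fit. Its spread comes from the TaVAPOE pair alone (1 residual degree of freedom), so the single WT and mutant arrays are taken to vary as much as that pair. No probe set passed in it (0.0%, adjusted p = 0.678 to 0.976 for the 5 genes), while 13.0% had an unadjusted p under 0.05 and none of the 5 genes did. The direction of RCA turned between the 2 fits.

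Between TaVAPOE and WT, LHCB4.2 had the largest difference of the 5 genes, without passing the test. Over 6 arrays it was 2.40 ± 1.44 log units higher in TaVAPOE (limma, n = 2 against 2, 95% interval -1.15 to 5.94, adjusted p = 0.870). Its groups did not overlap, as for 25.3% of all probe sets in that direction, so this does not single out LHCB4.2. Over the concordant arrays it was 1.18 ± 0.19 higher (n = 2 against 1, 95% interval 0.66 to 1.71, adjusted p = 0.0935, unadjusted p = 0.00278). A difference over 1 log unit upward was found there in 3.16% of all probe sets, and an unadjusted p under 0.05 in 21.1%. On base 2 the concordant difference would be 2.27-fold, and more on a natural log scale. The size of the difference rested on which WT array was used, at 1.18 without WT replicate 1 and 3.61 without WT replicate 2.

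For the other 4 genes the TaVAPOE and WT arrays overlapped. Over 6 arrays LHCB4.3 differed by 0.22 ± 1.02, LHCB4.1 by 0.05 ± 1.92, PSAE1 by -0.01 ± 1.53 and RCA by -0.15 ± 1.66 (limma, adjusted p = 0.971 to 0.999). With intervals as wide as -4.69 to 4.78 for LHCB4.1, that fit could not show a difference of the size seen for LHCB4.2. Over the concordant arrays LHCB4.3 differed by -0.50 ± 0.19 (95% interval -1.02 to 0.03, adjusted p = 0.252), RCA by -0.27 ± 0.20, PSAE1 by -0.12 ± 0.19 and LHCB4.1 by -0.02 ± 0.20. LHCB4.2 was thus the only one of the 5 that read higher in TaVAPOE on these arrays. Both of its paralogs turned direction between the fits, LHCB4.1 with only small differences (0.05 and -0.02). In limma 0 of the 5 genes passed in either fit, against 0.0% of all probe sets over 6 arrays and 0.0396% over the concordant arrays. The unadjusted p was under 0.05 for 0 genes over 6 arrays, where 2.14% of probe sets had one.

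Between TaVAPOE and the mutant, which uses the same TaVAPOE arrays, LHCB4.2 had the largest difference of the 5 genes over the concordant arrays, and LHCB4.1 over 6 arrays. LHCB4.2 was higher in TaVAPOE by 3.22 ± 1.44 log units over 6 arrays (limma, n = 2 against 2, 95% interval -0.33 to 6.77, adjusted p = 0.865) and by 1.21 ± 0.19 over the concordant arrays (95% interval 0.69 to 1.73, adjusted p = 0.140), where 1.93% of all probe sets were over 1 log unit higher. LHCB4.1 (3.38 ± 1.92), PSAE1 (2.49 ± 1.53), RCA (2.201 ± 1.66) and LHCB4.3 (1.15 ± 1.02) were higher too over 6 arrays with the same adjusted p, and for LHCB4.1 and LHCB4.2 the groups did not overlap, as for 19.8% of all probe sets. These differences again contain mutant replicate 1. Over the concordant arrays RCA read lower in TaVAPOE than on the single mutant array by -0.54 ± 0.20 (95% interval -1.08 to -0.0006, unadjusted p = 0.0498, adjusted p = 0.337), LHCB4.3 by -0.27 ± 0.19, and LHCB4.1 and PSAE1 differed by 0.18 ± 0.20 and -0.01 ± 0.19. In limma 0 of the 5 genes passed in either fit, against 0.0% of all probe sets over 6 arrays and 0.0659% over the concordant arrays. An unadjusted p under 0.05 was found for 0 genes over 6 arrays, where 1.31% of probe sets had one, and for LHCB4.2 and RCA over the concordant arrays, where 14.8% had one.

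**Figure D3:**
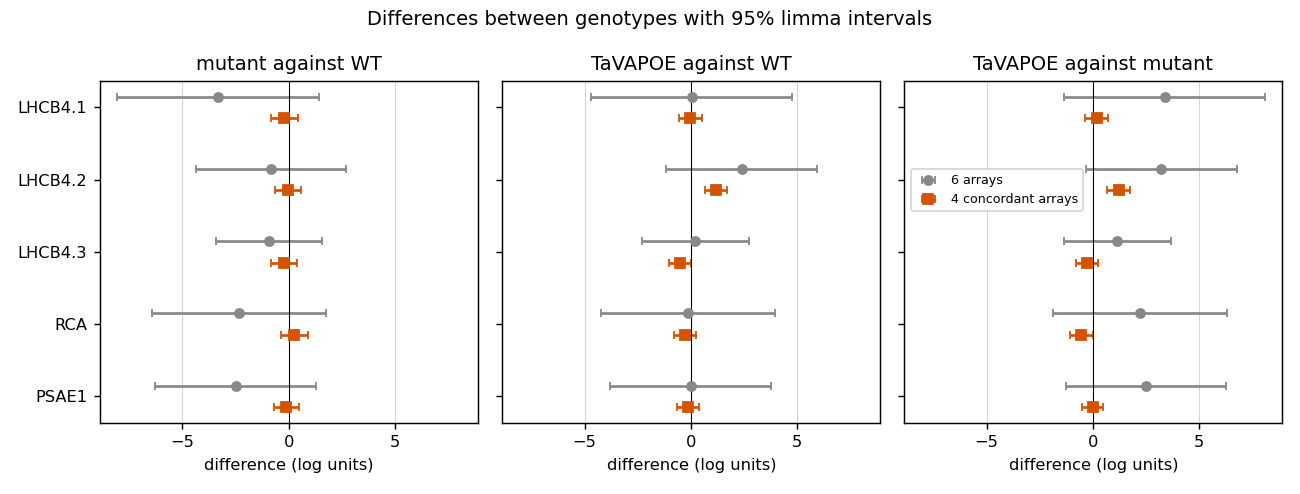
Difference between genotypes in log units (horizontal axis) for each gene, with 95% limma intervals, 1 panel per comparison. Grey circles use 6 arrays and orange squares the 4 concordant arrays. Over the concordant arrays LHCB4.2 in TaVAPOE lies at 1.18 against WT and 1.21 against the mutant. The other 4 genes lie between -0.54 and 0.27 over these arrays in all 3 panels, but between -3.33 and 3.38 over 6 arrays.

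The balance among the LHCB4 paralogs was followed by the difference between their probe sets on the same array. A probe set's brightness depends on its own probes, so these differences do not give relative transcript amounts, and only their change from array to array is described. LHCB4.2 minus LHCB4.3 was 2.34 and 2.35 in TaVAPOE, 0.67 and 0.87 on WT and mutant replicate 2, and -0.33 on both discordant arrays. It was thus higher on both TaVAPOE arrays than on the other 4, and the same on WT replicate 1 and mutant replicate 1. On mutant replicate 1, however, LHCB4.2 and LHCB4.3 read below the array median, at percentiles 24.4 and 38.3. On WT replicate 1 they stood at 89.2 and 93.5, so the equal difference says little about the balance. LHCB4.1 minus LHCB4.2 was 1.80 and 1.4999 in TaVAPOE, 2.86 and 2.68 on WT and mutant replicate 2, 5.14 on WT replicate 1 and 0.30 on mutant replicate 1. LHCB4.1 minus LHCB4.3 was 4.14 and 3.85 in TaVAPOE, 3.52 and 3.55 on WT and mutant replicate 2, 4.81 on WT replicate 1 and -0.03 on mutant replicate 1. The 2 differences that hold LHCB4.2 therefore differed by 1.03 to 1.68 log units between TaVAPOE and the other genotypes on the concordant arrays, and the one without it by 0.44 to 0.47.

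RCA minus PSAE1 ranged less over the 6 arrays than the differences among the LHCB4 paralogs. The WT arrays gave -0.01 and 0.01, the mutant arrays -0.08 and 0.39, and the TaVAPOE arrays -0.19 and -0.08. On the concordant arrays it changed by 0.38 between mutant and WT, by -0.15 between TaVAPOE and WT and by -0.53 between TaVAPOE and the mutant. In an exact two-sided permutation test over arrays, 2 against 2 cannot go below p = 0.333, which was reached in 6 of the 12 tests of 4 differences in 3 comparisons, with LHCB4.2 minus LHCB4.3 in both TaVAPOE comparisons among them (adjusted p = 0.667 over the 12 tests), so no difference of this kind could pass.

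**Figure D4:**
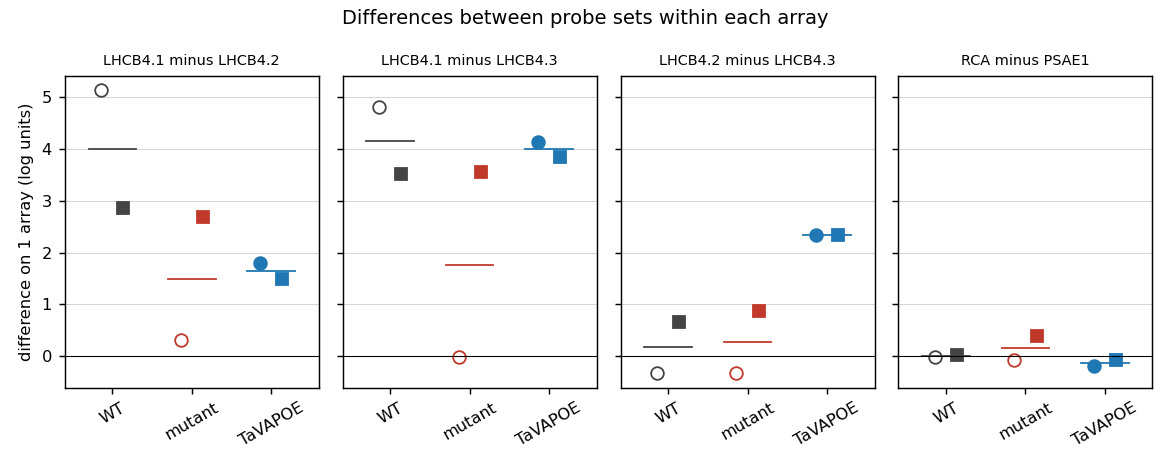
Difference between 2 probe sets on the same array in log units (vertical axis) by genotype. Circles are replicate 1 and squares replicate 2, open circles are the 2 discordant arrays, and lines are means of 2 arrays. LHCB4.2 minus LHCB4.3 is 2.34 and 2.35 in TaVAPOE and at most 0.87 elsewhere.

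Other nuclear genes of photosynthesis were looked at from 6 lists of 79 genes, of which 7 had a probe set with 1 gene. None of the 18 other antenna genes and none of the 10 genes of antenna import, assembly and regulation was among them. The 7 were PSAN, a lumenal photosystem I subunit, PSBW and PSBY, small photosystem II subunits, the Calvin cycle enzymes PRK (phosphoribulokinase), SBPASE (sedoheptulose bisphosphatase) and PGK2 (a phosphoglycerate kinase), and ATPC1, the gamma subunit of the chloroplast ATP synthase. On the concordant arrays their values lay between 6.27 and 8.79, and on mutant replicate 1 between 2.07 and 4.24. They differed in how far WT replicate 1 lay below WT replicate 2. PSAN read 8.41 there and 8.58 on WT replicate 2, and ATPC1 8.26 and 8.35. PSBY lay between, at 7.498 and 8.26, while PSBW read 6.21 and 8.19, PRK 5.23 and 7.54, SBPASE 4.63 and 7.32 and PGK2 4.40 and 6.44.

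None of the 7 passed in limma in any comparison, over 6 or over 4 arrays. Against WT over 6 arrays, all 7 were lower in the mutant with a median of -2.005 log units, from -2.79 for PSAN to -0.51 for PRK. In TaVAPOE over 6 arrays, 6 of the 7 were higher than in WT, with a median of 0.78 and the highest at 1.12 for SBPASE, and all 7 were higher than in the mutant, with a median of 2.33. Over all probe sets the 6-array medians were 0.0042, 0.03 and -0.05 for mutant against WT, TaVAPOE against WT and TaVAPOE against the mutant. Both TaVAPOE medians turned direction without the 2 discordant arrays. Over the concordant arrays the medians were -0.09 for the mutant and -0.22 for TaVAPOE against WT, and -0.09 for TaVAPOE against the mutant, beside 0.01, -0.01 and 0.00 over all probe sets. The highest difference of the 7 in TaVAPOE against WT on these arrays was 0.21, for PSAN. None of them therefore read higher there by as much as LHCB4.2 at 1.18.

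**Figure D5:**
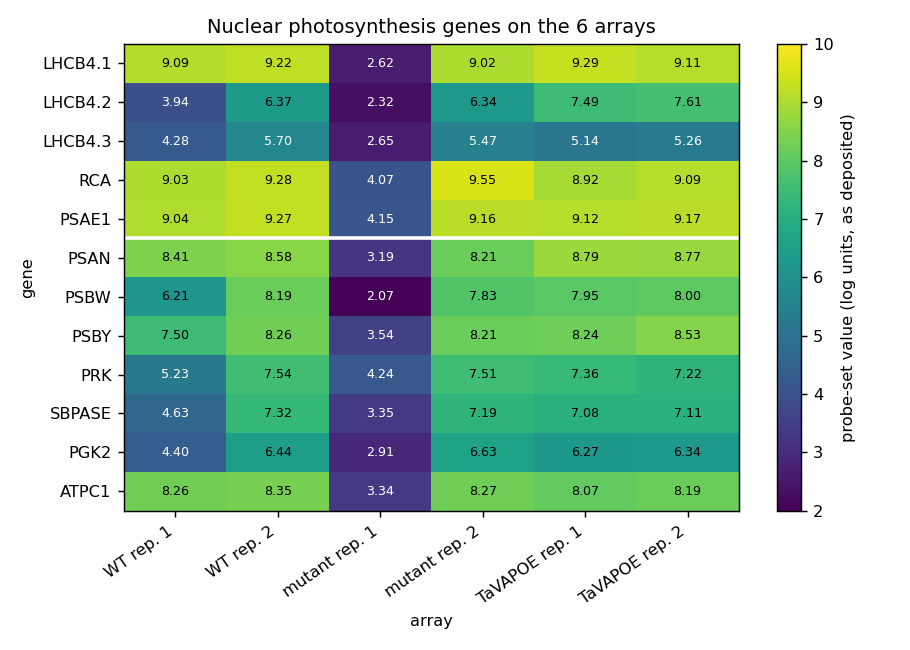
Probe-set values in log units (colour and printed numbers) of the 5 genes (above the white line) and 7 other nuclear photosynthesis genes (below it) on the 6 arrays. Mutant replicate 1 is low for all 12, and WT replicate 1 is closest to WT replicate 2 for ATPC1, LHCB4.1, PSAN, PSAE1 and RCA.

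Genes with the most similar pattern were sought among 6008 genes whose mean was above the median, by the root mean square difference of values centred on the gene's own mean over 6 arrays. Nearest to LHCB4.2 was PORB, a protochlorophyllide oxidoreductase of chlorophyll synthesis (0.22 log units), followed by AT2G44120 (0.26) and AT3G07110 (0.27). PORB read 4.27 and 6.496 in WT, 2.85 and 6.73 in the mutant and 7.66 and 7.47 for TaVAPOE. PORB was thus also highest on both TaVAPOE arrays, but it was chosen for its closeness to LHCB4.2, so this adds no separate evidence. Nearest to PSAE1 were ATPC1 (0.09), CCL (0.13) and the plastid gene atpE (0.18), and nearest to RCA the plastid gene rps4 (0.16), AT1G61890 (0.17) and ATPC1 (0.18). Nearest to LHCB4.1 were AT4G27280 (0.18), AT1G78040 (0.28) and the plastid gene atpB (0.30), and nearest to LHCB4.3 AT2G21530 (0.07), AT5G16200 (0.11) and AT1G32120 (0.14). These distances are set mostly by the 2 discordant arrays, which all genes share.

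Over the 4 concordant arrays alone the nearest genes were different ones for each of the 5. For LHCB4.2 they were AT1G26450 (0.03), LCR69 (0.04), a gene of the family of small cysteine-rich proteins, and AT1G73940 (0.05). The nearest, AT1G26450, was dim, at 2.03 on WT replicate 2, 2.01 on mutant replicate 2 and 3.08 and 3.22 in TaVAPOE. On the discordant arrays of WT and mutant it read 3.12 and 3.29. LCR69 read 7.37 on WT replicate 2, 7.31 on mutant replicate 2 and 8.503 and 8.69 in TaVAPOE, and 6.11 and 2.91 on the discordant arrays. For LHCB4.1 they were MAK10, AT2G42240 and AT1G17160, and for LHCB4.3 GLR1.4, AT5G13100 and AT4G37480. For RCA they were AT3G15630, AT3G04220 and AT1G45688, and for PSAE1 AT3G62820, the plastid gene matK and AT5G25210. The distances for these 4 members were at most 0.034 log units. With 4 arrays a close match says little, and GLR1.4, the nearest to LHCB4.3, read 5.31 on mutant replicate 1, where LHCB4.3 read 2.65.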

How the data were processed

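The deposited file holds 1 score for each of 22810 probe sets on each array. The scores are on a log scale, and no source states its base. Per the submitters' processing notes the tool was Agilent Feature Extraction, although the labels describe biotin-labelled cRNA on Affymetrix arrays. How the scores were summarised and normalized is not given in the sources used here, and they were used as deposited. Tests left out the 64 controls. Genes were named by matching the Entrez identifiers of the platform annotation to RefSeq (TAIR10.1): 13513 probe sets had 1 gene, 13436 of them matched, 503 had several and 8730 are unnamed here. Probe sequences were not used, so cross-hybridisation between the LHCB4 paralogs was not checked.

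A single limma model (version 3.58.1 in R 4.3.3) was fitted to the 6 arrays with 1 coefficient for each genotype (3 residual degrees of freedom), and the 3 comparisons were its contrasts, with Benjamini-Hochberg adjustment at 0.05 over 22746 probe sets. The fit was tested on simulated data drawn with the mean and spread of the TaVAPOE pair. These held no discordant arrays, so that test does not cover the effect of WT replicate 1 and mutant replicate 1. The named genes were the 5 by locus, all measured genes of the 6 lists, and the 3 nearest in pattern to each. The members, lists, and the 4-array fit were chosen with earlier results of these data known. Alternatives were the 4 arrays, leaving out each array, quantile normalization, median centring, a replicate block, the 2 groups alone, a floor at the 20th percentile (1.66), a filter at the 40th percentile of means and array quality weights. With 2 arrays per genotype the number of arrays limits the precision, and the labels call the replicates biological without naming separate cultures. The replicate numbers were not taken to pair the arrays. Deviations of same-numbered arrays from their group means correlated at 0.58 between WT and mutant, whose replicate 1 arrays were both discordant. They correlated at 0.014 between WT and TaVAPOE and at 0.088 between mutant and TaVAPOE. What WT replicate 1 and mutant replicate 1 share was not tested.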

Additional observations from a re-analysis of the deposited data

How the results depend on the processing

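Of 225 values of the 15 differences (5 genes in 3 comparisons) under 15 alternatives, 0 passed in limma, 198 kept their direction and 27 turned. Many of the 198 could not turn. The replicate block, the 2 groups alone, the floor, the filter and the array quality weights left each difference unchanged and altered only its SE and p. Leaving out an array of the genotype outside the comparison did the same. The array quality weights were equal for both arrays of a genotype, at 0.43 in WT, 0.34 in the mutant and 6.97 in TaVAPOE. They therefore could not lower a discordant array against the other array of its genotype. The count of probe sets passing, 0 in each comparison over 6 arrays, stayed 0 except over the 4 concordant arrays (9 for TaVAPOE against WT and 15 against the mutant), with array quality weights (3 for TaVAPOE against WT) and over the 4 arrays with quantile normalization across them, chosen after seeing the data (4 for mutant against WT, 732 and 206 for TaVAPOE). In that last setting LHCB4.2 was higher in TaVAPOE by 1.09 against WT (adjusted p = 0.0538) and 1.24 against the mutant (adjusted p = 0.0707), without passing. Directions that turned over the 4 arrays, with the value after quantile normalization second, were RCA for mutant against WT (0.27 and 0.19), LHCB4.1 (-0.0221 and -0.0806) and LHCB4.3 (-0.50 and -0.60) for TaVAPOE against WT, and LHCB4.3 (-0.27 and -0.25) and RCA (-0.54 and -0.48) for TaVAPOE against the mutant. PSAE1 for TaVAPOE against the mutant turned over the 4 arrays as deposited (-0.0136). For TaVAPOE against WT, quantile normalization of 6 arrays turned LHCB4.1 (-0.0775) and LHCB4.3 (-0.54), and median centring turned PSAE1 (0.0171). These alternatives hold fewer arrays or another scaling, and the cause was otherwise not tested.

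Leaving out 1 array, with the lone array left in its group taken to vary like the other groups, gave, for mutant against WT, -6.53 to -0.13 for LHCB4.1, -2.84 to 1.19 for LHCB4.2, -2.34 to 0.48 for LHCB4.3, -5.09 to 0.39 for RCA and -5.01 to 0.0024 for PSAE1, the higher end without mutant replicate 1 in each. For TaVAPOE against WT it gave -0.0412 to 0.13, 1.18 to 3.61, -0.50 to 0.93, -0.27 to -0.02 and -0.12 to 0.10 in the same order of genes, and against the mutant 0.18 to 6.58, 1.21 to 5.23, -0.27 to 2.56, -0.54 to 4.94 and -0.0136 to 4.998. With the replicate number as a block no call changed and the count stayed 0. No gene had a dimmer probe set to try. Since no detection calls were used, signal over background is unknown. No value of the 5 genes lay below 1.66, the 20th percentile used as a floor, which does not show signal. On mutant replicate 1 LHCB4.1, LHCB4.2 and LHCB4.3 lay below that array's median, at percentiles 37.1, 24.4 and 38.3.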
